A study of Sus scrofa with 180 samples.

Results

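MYH3, MYH8, TNNT2 and TNNI3 code for contractile proteins that are best known from developing muscle and from the heart. MYH3 is the embryonic and MYH8 the perinatal myosin heavy chain, the motors of fibres that are forming before and around birth. TNNT2 is troponin T of the heart and of embryonic skeletal muscle, the subunit that anchors the troponin complex on tropomyosin. TNNI3 is troponin I of the heart, the subunit that holds contraction off until calcium binds. In a maturing skeletal fibre the developmental myosins give way to the adult fast and slow heavy chains, and they are made again in fibres that form anew after injury. TNNI3 is mainly an isoform of the mature heart, so that the name embryonic troponin describes TNNT2 better than TNNI3.

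The 4 genes were members because a probe of the array carries their symbol in the lists of probes published with the study, which were used only to give probes a name. Each was read by 1 named probe, so that the members were 4 of the 15198 probes of the array and 4 of the 3481 genes named. The list of genes higher in SM was at hand only in part, so other probes of the members or of the gene lists below may stay unnamed, and counts of probes higher in SM depend on it. The published lists hold only probes that differed between the muscles on these same arrays, so the direction of the difference between muscles below is not independent of how the names were come by. Gene expression was measured in Longissimus muscle (LM, the loin) and Semimembranosus muscle (SM, the ham) of 90 slaughter pigs, each muscle of each pig on 1 single-colour Agilent array, giving 90 arrays of LM and 90 of SM. The pigs were non-modified domestic animals from an intercross of terminal sire lines, raised on 1 farm, with no treatment, and the labels give neither age nor sex. The pieces were taken by trocar from the superficial part of each muscle after slaughter, so that deeper parts were not sampled, and pigs that share a sire are not fully independent samples.

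Arrays of LM were brighter than those of SM. The median signal of an array was 216 (171 to 304) in LM against 169.6 (105 to 252) in SM, and in the median array of LM 83.4% of probes stood well above background, in that of SM 73.4%. Probes rich in C at their start were relatively brighter in SM: an index of them, their mean level minus that of probes poor in C, had a median of -0.37 in LM and 0.36 in SM. No slide held both muscles, and none of the 10 scan days of LM was shared with the 5 of SM, so slide, scan day and muscle cannot be told apart beyond fitting slide or day as a random block. All 5 genes used to mark skeletal muscle fibres (ACTA1, CKM, MYH1, TTN and MYL1) were measured, by 9 probes and each in 84 to 90 arrays of a muscle. Levels below are log2 processed signals with the median of the array subtracted, so 0 is the median probe of an array and 1 unit is a doubling. Signals of different probes were not set against each other, because each probe binds with its own strength.

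All 4 probes are oligonucleotides of 60 bases. Their first 15 bases, 5′ to 3′, are shown because the index of C-rich probes is built on this stretch, and the C are in capitals. TNNI3 is shown in full because its probe held no C in this stretch.
MYH3 probe BM659685.1_856, first bases: gagagCgaagagtga
MYH8 probe CB826593.1_1253, first bases: CttgCtttgtgaggt
TNNT2 probe CF181670.1_924, first bases: aaagtCaCtggaCgt
TNNI3 probe BQ599904.1_443, whole: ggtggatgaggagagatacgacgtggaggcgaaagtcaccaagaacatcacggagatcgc
The stretch held 1 C in MYH3, 2 in MYH8, 3 in TNNT2 and 0 in TNNI3, where a probe was counted as C-rich from 8 C on. The longest run of bases shared between any pair of member probes, on either strand, was 8 bases (TNNT2 and TNNI3), and MYH3 and MYH8 shared 6. Against the named probe of the adult fast heavy chain MYH1, the longest shared run was 7 bases for MYH3 and 6 for MYH8. Against the named probe of the slow troponin I TNNI1 it was 7 for TNNI3. Over all other probes of the array the longest shared run was 13 bases for MYH3, TNNT2 and TNNI3 and 14 for MYH8. Only probes were compared, and 2 probes can sit on different parts of their transcripts. Short runs therefore do not show which transcripts a probe binds. Transcripts outside the array's own probes were not searched. In the RefSeq annotation of assembly Sscrofa11.1, TNNI3 lies beside the slow troponin T gene TNNT1, and TNNT2 lies near the slow troponin I gene TNNI1 with LAD1 between them.

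All 4 members were higher in SM than in LM. MYH3 was 2.62 times and MYH8 2.49 times as high in SM by geometric means, while the differences of the 2 troponins were smaller, 1.66 times for TNNT2 and 1.59 times for TNNI3. Over all 10987 probes tested, 47.7% were called higher in SM at an adjusted p of 0.05 or less, and the median log2 difference of LM minus SM was -0.07, so a higher level in SM alone does not mark out these genes. Most pigs showed the direction: MYH3, MYH8 and TNNI3 were each higher in SM in 73 of 90 pigs, and TNNT2 in 58 of 84. The levels overlapped widely in all 4. The p values by gene below come from a fit that takes the arrays as independent, although arrays share slides and scan days. With scan day as a random block, the SE of the MYH3 difference was 0.35 instead of 0.21. The adjusted p values by limma were then 2.99e-04 for MYH3, 3.47e-04 for MYH8, 0.0283 for TNNT2 and 7.02e-05 for TNNI3.

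MYH3 ranged in LM from -1.84 through a median of 0.83 to 5.50, and in SM from -0.08 through 2.22 to 6.44 (90 arrays each). Its mean was 1.04 ± 1.48 (SD) in LM and 2.43 ± 1.39 in SM. In all, 20 of the LM arrays fell under every SM array, whereas 1 SM array lay above the highest of LM. The log2 difference of SM minus LM was 1.39 (SE 0.21), with an adjusted p of 9.39e-10 by limma.

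MYH8 ranged in LM from -0.46 through a median of 2.42 to 6.30, and in SM from 0.69 through 3.85 to 7.19 (90 arrays each). Its mean was 2.50 ± 1.35 (SD) in LM and 3.81 ± 1.41 in SM. Of the LM arrays 13 lay above the SM median, and of the SM arrays 18 lay under the LM median. The log2 difference of SM minus LM was 1.31 (SE 0.20, adjusted p 1.67e-09 by limma).

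TNNT2 was the only member with spots near background: 3 in LM and 2 in SM were not well above it and were left out, as was 1 further SM value over 3 SD from the mean. It ranged in LM from -3.74 through a median of -1.90 to 2.29, and in SM from -3.85 through -1.14 to 1.87 (87 arrays each). Its means were -1.80 ± 1.25 (SD) in LM and -1.07 ± 1.34 in SM. The highest value kept was in LM, but before values were left out the highest processed signal was 3833 in SM against 2374 in LM. The log2 difference was 0.73 (SE 0.19, adjusted p 3.1e-04 by limma). It was 0.34 (adjusted p 0.433) when the pig and an index of C-rich probes entered together, and 0.49 (adjusted p 0.247) in the 21 pigs whose number begins with M, a letter the labels do not explain. In the 69 other pigs it was 0.80 (adjusted p 6.04e-04), and the difference between these sets of pigs was not tested.

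TNNI3 spread least. It ranged in LM from -1.68 through a median of -0.39 to 1.37, and in SM from -1.79 through 0.28 to 1.70 (90 arrays each). Its means were -0.35 ± 0.61 (SD) in LM and 0.32 ± 0.64 in SM. The lowest values of the 2 muscles were close together, and 4 SM arrays lay above the highest of LM. The log2 difference was 0.66 (SE 0.09, adjusted p 3.3e-11 by limma), the lowest adjusted p of the 4 although its difference was the smallest.

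**Figure D1:**
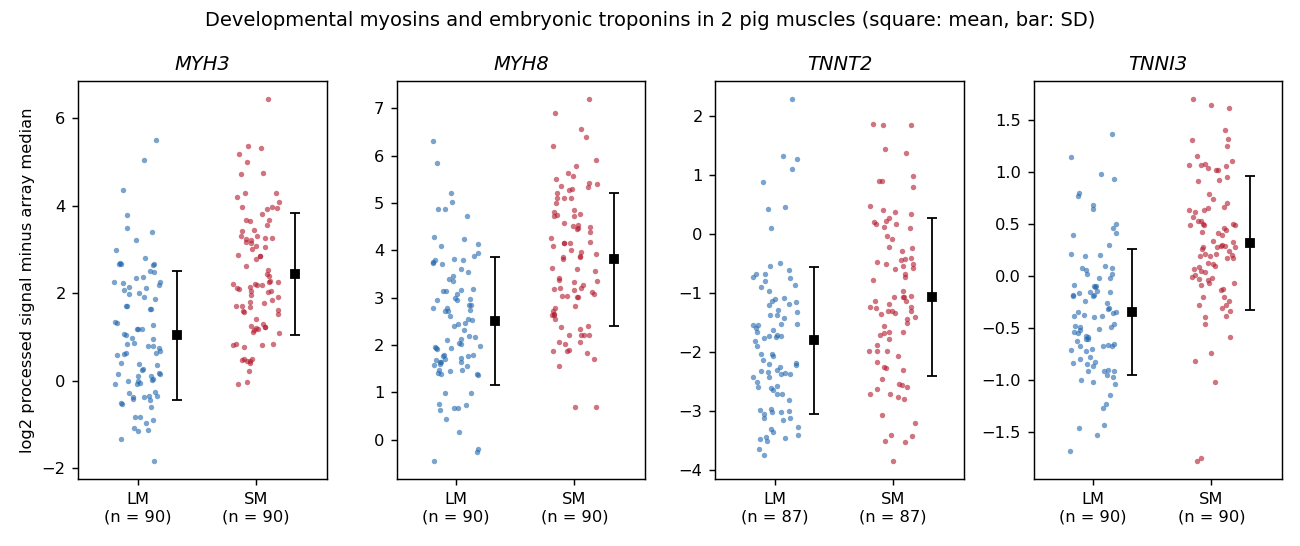
Level of each member (log2 processed signal minus the array median) in LM and SM; each point is 1 array, the square is the mean and the bar the SD. SM lies above LM in all 4 panels with wide overlap, and the scale of TNNI3 spans about 3.5 units against 6 to 8 for the other 3 genes.

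Most markers of other cell types were also higher in SM, and their part in the members' differences was not tested. As their names came from the lists of differing probes, that they were called was all but fixed, and 47.7% of all probes were called higher in SM. CD68 of the macrophage list was called higher in LM. All 7 probes of the smooth muscle markers MYH11, MYL9, ACTA2, CNN1 and TAGLN were called higher in SM, and so were both probes of the fibroblast gene COL1A2, both endothelial probes (VWF and CDH5) and both adipocyte probes (ADIPOQ and PLIN1). Both ACTA2 probes stood far above the array median, with means of 6.69 and 9.27 in LM and 7.16 and 9.74 in SM. Whether they also bind RNA of the skeletal actin ACTA1 was not tested. The mean level of the smooth muscle probes, each centred on its own mean, ran from -1.22 through a median of -0.52 to 0.29 in LM and from -0.24 through 0.43 to 1.54 in SM. That of the fibroblast probes ran from -1.50 through -0.32 to 1.26 in LM and from -1.75 through 0.34 to 1.55 in SM. These markers were each measured in 81 to 90 arrays of a muscle, and PECAM1, KDR, COL1A1, COL3A1, PDGFRA and FABP4 were not named in the lists used here. In a whole piece of muscle, fewer cells of a type and less RNA per cell cannot be told apart. Within a muscle, the mean of the smooth muscle probes correlated with MYH3 across pigs at r = 0.292 in LM and 0.226 in SM, and that of the fibroblast probes at 0.173 and 0.286. The adipocyte probes, whose genes mark fat, had -0.038 and 0.122 with MYH3 and -0.255 and -0.400 with TNNI3.

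**Figure D2:**
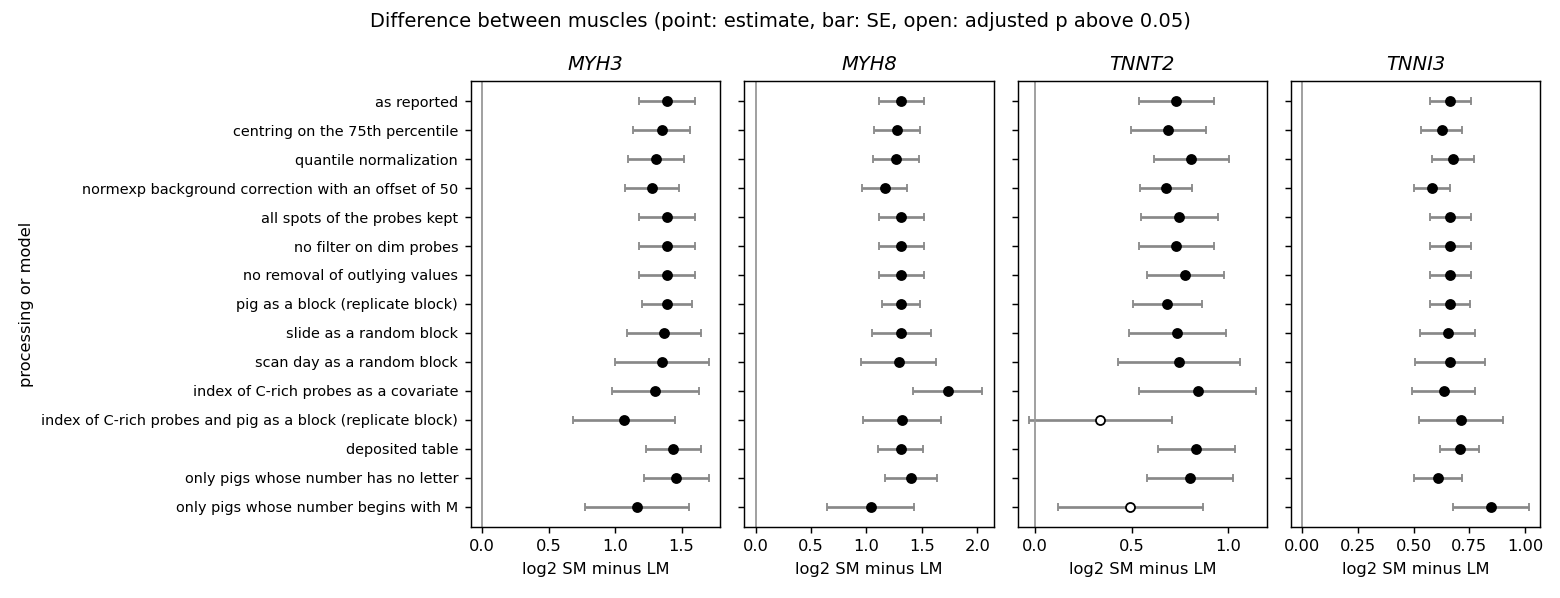
Log2 difference of SM minus LM of each member (horizontal axis) under each way of processing or modelling (vertical axis); points are estimates, bars the SE, and open points have an adjusted p above 0.05. All estimates lie above 0, and the open points are both of TNNT2, at 0.34 and 0.49.

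The developmental myosins and TNNT2 spread far more across the arrays of a muscle, 1 array a pig, than most genes did. With 1 array for each muscle of a pig, the pig, the sampled spot and the array cannot be told apart in this spread. The SD across pigs of MYH3 was the 9th highest of 10987 probes in LM and the 8th highest in SM. MYH8 was 14th and 6th, and TNNT2 20th and 12th. The median SD over all probes was 0.28 in LM and 0.29 in SM. TNNI3, with ranks of 635 and 388, was more variable than most probes but did not stand with the other 3. In linear terms, the MYH3 signal of the highest LM array was 162 times that of the lowest, and the 9th decile was 10.0 times the 1st decile in LM and 11.2 times in SM. For MYH8 the deciles were 10.4 times apart in LM and 10.9 in SM, and for TNNT2 6.82 and 10.1. For TNNI3 they were 2.78 and 2.68 times apart.

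No member was called different between slides. Arrays on slides with 3 or more arrays were compared within a muscle. In LM the adjusted p values by the limma F test were 0.615 for MYH3, 0.132 for MYH8, 0.592 for TNNT2 and 0.618 for TNNI3, where 53.6% of all probes were called. In SM they were 0.186, 0.445, 0.101 and 0.541, where 15.0% of probes were called. A p above the threshold does not show that slides did not differ, and unadjusted the TNNT2 value in SM was 0.0235. Nor was any member related to the array's median signal, its share of probes well above background or its index of C-rich probes at an adjusted p of 0.05, over 24 correlations with 100000 permutations each. The strongest was that of MYH8 with the median signal in SM (r = 0.266, rho = 0.270, permutation p 0.0108, adjusted p 0.26).

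The spread across pigs was compared between the muscles. The log2 ratio of the SD in SM to that in LM was -0.09 for MYH3, 0.06 for MYH8, 0.14 for TNNT2 and 0.08 for TNNI3. When the muscles were swapped within pigs at random, the adjusted p was 0.683 for all 4, so that no difference in spread was detectable with these pigs.

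MYH3, MYH8 and TNNT2 rose and fell together across the arrays of each muscle, with 1 array a pig. In LM, Pearson's r was 0.876 between MYH3 and TNNT2 (rho = 0.835, n = 87), 0.756 between MYH8 and TNNT2 (rho = 0.713, n = 87) and 0.645 between MYH3 and MYH8 (rho = 0.590, n = 90). In SM the same pairs gave 0.890 (rho = 0.882, n = 87), 0.800 (rho = 0.781, n = 87) and 0.825 (rho = 0.792, n = 90). Each had a two-sided permutation p of 1e-05, the smallest that 100000 permutations can give, and an adjusted p of 2e-05 over the 12 correlations of the 6 pairs in 2 muscles. The relation did not rest on the 2 arrays farthest from the median of the first gene: without them, r was 0.847, 0.724 and 0.593 in LM and 0.876, 0.772 and 0.814 in SM. Within slides it was 0.899, 0.772 and 0.620 in LM and 0.856, 0.770 and 0.807 in SM. In the 21 pigs whose number begins with M, the pair MYH3 and MYH8 in LM gave 0.379 (adjusted p 0.154, permutation test), and the other 5 were 0.674 to 0.799 with adjusted p values of 0.00233 or less.

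Among the probes with a name, these 3 genes were nearest to each other. TNNT2 was the probe with the highest r to MYH3 in both muscles, of 10886 probes compared in LM and 10635 in SM, and MYH3 was the highest to TNNT2. MYH8 was the 3rd of all probes to MYH3 in both muscles. For scale, the middle 90% of probes had an r with MYH3 between -0.254 and 0.280 in LM and between -0.369 and 0.378 in SM.

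TNNI3 did not join them. Its r with MYH3, MYH8 and TNNT2 was -0.060, -0.167 and -0.202 in LM and -0.212, -0.212 and -0.280 in SM, so all 6 values were below 0 and small. Of these, TNNT2 in SM passed the threshold (n = 87, permutation tests), with an adjusted p of 0.0144 for r and 0.044 for rho (rho = -0.235). Within slides its r was -0.181 with an adjusted p of 0.231. TNNT2 in LM had an adjusted p of 0.0723 for r and 0.0165 for rho (rho = -0.278), and the other 4 had adjusted p values of 0.0614 to 0.571 for r.

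**Figure D3:**
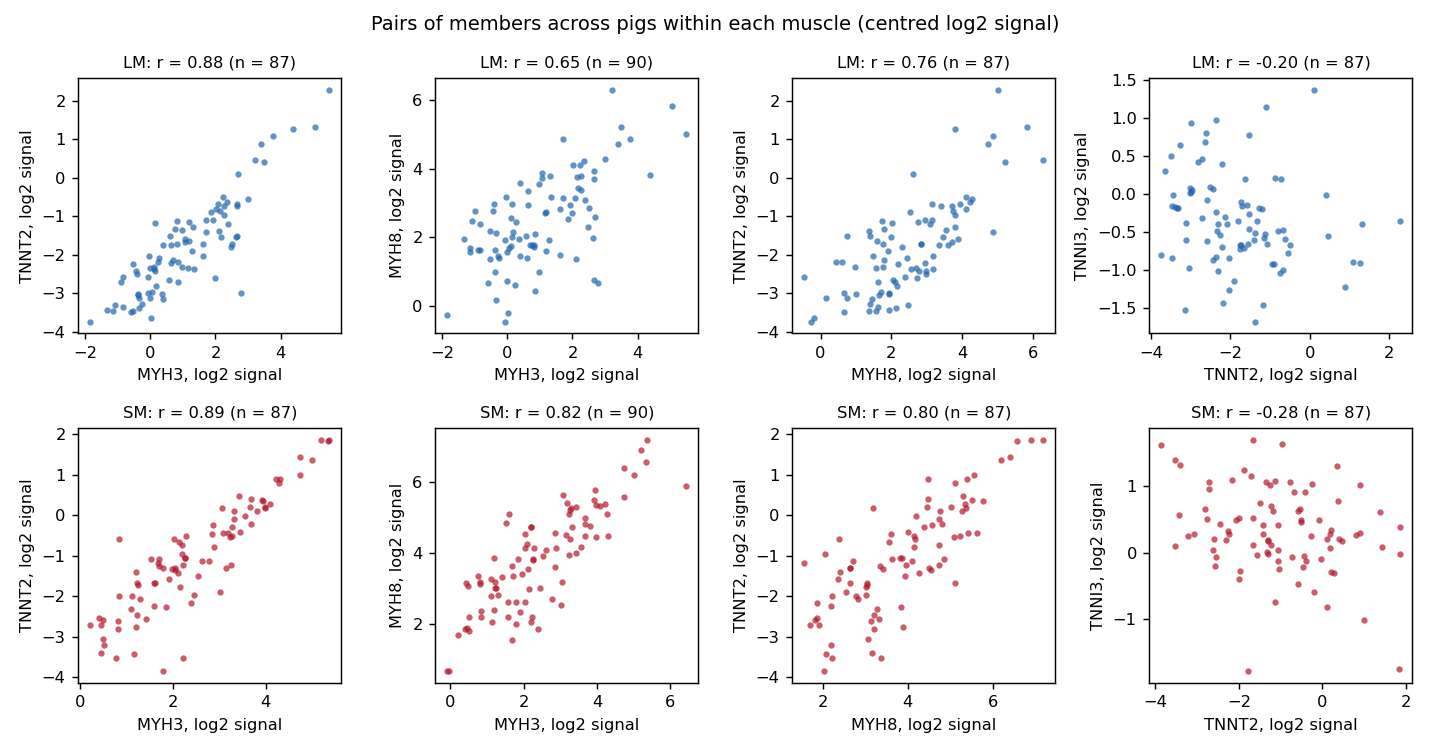
Levels of pairs of members (centred log2 signal on both axes) across pigs, LM above and SM below, each point 1 pig, with Pearson's r and the number of pigs. MYH3, MYH8 and TNNT2 form rising clouds with r from 0.645 to 0.890, while TNNI3 falls slightly against TNNT2 (-0.202 and -0.280).

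The strength of these relations was compared between the muscles by swapping the muscles of a pig. The pair MYH3 and MYH8 differed most, with r higher by 0.179 in SM (n = 90, permutation p 0.0187), but over the 6 pairs the adjusted p was 0.112. The other 5 differences lay between -0.151 and 0.050, with adjusted p values of 0.751.

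The levels in the 2 muscles of a pig were only weakly related. Across pigs, the r between LM and SM was 0.197 for MYH3 (rho = 0.217, n = 90, permutation p 0.0626, adjusted p 0.125), 0.286 for MYH8 (rho = 0.285, n = 90, permutation p 0.00648, adjusted p 0.0259), 0.151 for TNNT2 (rho = 0.159, n = 84, adjusted p 0.227) and 0.028 for TNNI3 (rho = 0.025, n = 90, adjusted p 0.793). The adjusted values are over the 4 genes. MYH8 was the only member past the threshold. Without the 2 arrays farthest from the median its r was 0.206 (adjusted p 0.212) and its rho 0.242 (adjusted p 0.091, permutation tests), and with both muscles centred on their slides r was 0.154 (adjusted p 0.64). In the 69 pigs with no letter r was 0.356 (adjusted p 0.0101), and in the 21 M pigs 0.039 (adjusted p 0.866). These values stand beside an r of 0.645 to 0.890 among MYH3, MYH8 and TNNT2 inside 1 muscle. The difference of SM minus LM within a pig ran accordingly from -2.67 to 6.43 for MYH3, -2.53 to 5.16 for MYH8, -3.13 to 4.44 for TNNT2 and -1.62 to 2.67 for TNNI3.

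**Figure D4:**
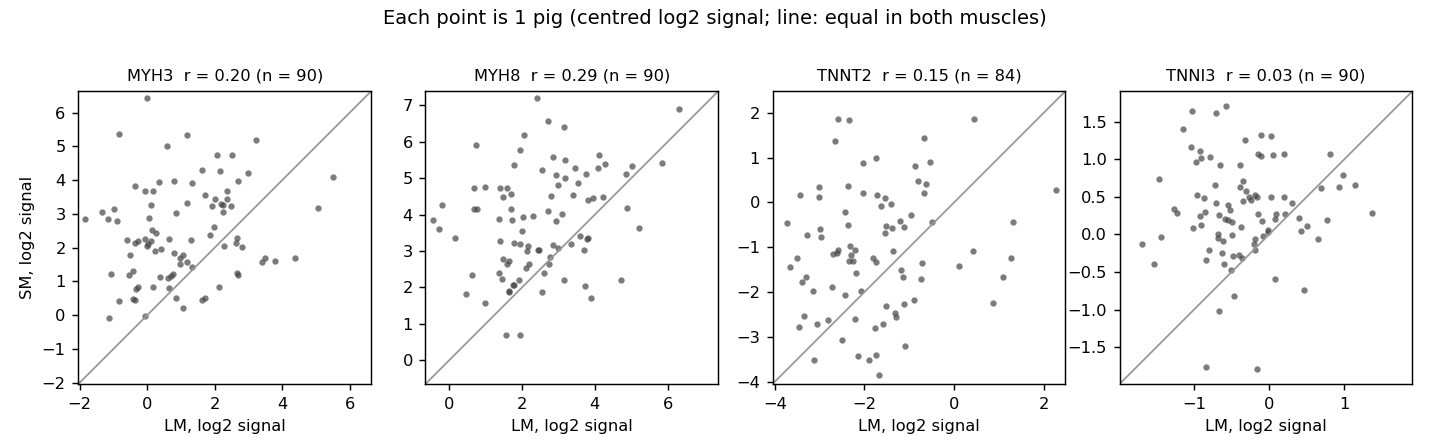
Level of each member in SM (vertical axis) against LM (horizontal axis) of the same pig, in centred log2 signal, with the line of equal levels. Most points lie above the line (73 of 90 pigs for MYH3, MYH8 and TNNI3, 58 of 84 for TNNT2), and the clouds have little slope, with r from 0.028 to 0.286.

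Genes of the slow fibre separated TNNI3 from the other members. Of the 11 slow fibre genes listed, 6 were measured by 8 probes, of which 4 were called higher in each muscle. Since names came from the lists of differing probes, nearly every named probe was called, and the direction too was in those lists. Across pigs the median r of these 8 probes was 0.408 with TNNI3 in LM and 0.221 in SM. With MYH3 it was -0.171 and -0.144, with MYH8 -0.202 and -0.189, and with TNNT2 -0.258 and -0.216, where the median over all probes lay between -0.053 and 0.027 for every member. The mean level of the 8 probes, CASQ2 included, gave stronger values with TNNI3, 0.527 in LM and 0.241 in SM. With the other members it gave weaker values: -0.071 and -0.066 with MYH3, -0.110 and -0.036 with MYH8, and -0.132 and -0.156 with TNNT2. These correlations with other genes are descriptions across pigs, with no test, and the arrays behind them share their slides.

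TNNI1, the troponin I of slow fibres, was the clearest case. Its r with TNNI3 was 0.558 in LM, the 3rd highest of 10886 probes, and 0.349 in SM (0.626 and 0.354 within slides). Whether the TNNI3 probe also binds TNNI1 RNA was not tested. With TNNT2 the r of TNNI1 was -0.310 in LM and -0.523 in SM (-0.242 and -0.508 within slides). ATP2A2, the slow calcium pump of the reticulum, had an r with TNNI3 of 0.550 in LM and 0.203 in SM, and MB, the oxygen carrier myoglobin, 0.393 and 0.364. With TNNT2, ATP2A2 had -0.269 and -0.437 and MB -0.321 and -0.173.

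CASQ2, the calcium store protein of heart and slow fibres, went the other way from the rest of its list. Its r was 0.463 in LM and 0.575 in SM with MYH3, 0.520 and 0.613 with MYH8, and 0.507 and 0.442 with TNNT2, against 0.085 and -0.030 with TNNI3. Within slides the values with MYH3 were 0.503 and 0.681. CASQ2 was itself higher in SM, by 0.46 on the log2 scale (SE 0.10, adjusted p 5.08e-06 by limma).

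Adult fast fibre genes went both ways with the members. Of 14 listed, MYH1 and PVALB were called higher in SM and MYL1 and CKM higher in LM. The median r of their 4 probes lay between -0.050 and 0.097 over the 4 members and 2 muscles, and their mean level reached an r of 0.289 with TNNT2 in SM. PVALB, the calcium buffer parvalbumin, reached 0.336 with TNNT2 in SM, and MYL1, the fast alkali light chain, -0.319 with MYH3 in SM but -0.037 in LM. Sarcomere genes that all fibre types use were measured by 13 probes, of which 9 were higher in LM, among them titin (TTN, 4 probes) and nebulin (NEB, 3 probes). Of all 10987 probes tested, 3925 were called higher in LM. Probes of the same gene are not separate cases, and all were named for differing between the muscles, so nothing is read from these counts. The median r of these 13 probes with the members lay between -0.142 and 0.102.

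The other fetal and cardiac sarcomere genes had an r of at most 0.138 with MYH3, MYH8 and TNNT2 in either muscle, apart from CASQ2, which this list also holds. Of 10 listed, 6 were measured by 1 probe each. MYL6B, MYBPC3, MYBPH and CASQ2 were called higher in SM, LMOD2 higher in LM, and CSRP3 was not called (log2 LM minus SM 0.15, SE 0.11, adjusted p 0.201 by limma). With the C-rich probe index in the fit, CASQ2 stayed called higher in SM while MYL6B, MYBPC3 and MYBPH were not called, at a log2 LM minus SM of -0.13, 0.04 and -0.06 (adjusted p 0.419, 0.689 and 0.509). MYL6B, an alkali light chain of slow and embryonic muscle, had an r of -0.314 with MYH3, -0.314 with MYH8 and -0.389 with TNNT2 in SM, and 0.315 with TNNI3. In LM these were -0.086, -0.053, -0.109 and 0.284. Within slides its values with MYH3 were 0.023 in LM and -0.206 in SM. ACTC1, MYL4, MYL7 and MYH6 were not named in the lists used here.

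Genes of myogenesis and regeneration had, on average, a positive r with MYH3, MYH8 and TNNT2 in SM. Of 18 listed, 14 were measured by 17 probes, and the mean of these probes had an r in SM of 0.459 with MYH3, 0.523 with MYH8, 0.441 with TNNT2 and -0.234 with TNNI3. In LM these were 0.212, 0.048, 0.244 and -0.039. Taken probe by probe, the median r in SM was lower, 0.119 with MYH3 and with MYH8 and 0.103 with TNNT2. SM had the higher level for 11 of the 17 probes, where 47.7% of all probes were called higher in SM, but these probes were named for differing between the muscles, so nothing is read from that count. MYOD1, higher in SM by 0.82 on the log2 scale (adjusted p 6.04e-13 by limma), was higher in LM by 0.69 (adjusted p 1.12e-11) with the C-rich probe index in the fit. SPP1 (osteopontin, a secreted protein of inflamed and regenerating muscle) had an r in SM of 0.503 with MYH3, 0.593 with MYH8 and 0.502 with TNNT2. It was measured in 53 arrays of LM, too few for the limit of 60 set for these correlations. The mean of the list is unweighted, so in LM it holds SPP1 in those 53 arrays only. In SM the SD of SPP1, 1.39, was the largest of the list, so it weighs most on the mean there. The list means of the 2 muscles are thus not fully alike. CD44, the receptor of hyaluronan and osteopontin, had 0.443, 0.492 and 0.353 in SM and 0.123, 0.119 and 0.145 in LM. VIM (vimentin, an intermediate filament of immature fibres and of connective tissue, whose own markers are given above) had 0.467, 0.457 and 0.401 in SM and 0.141, 0.098 and 0.149 in LM. Whether these differ between the muscles was not tested.

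The regulators of the muscle lineage had lower values. MYOD1, which commits cells to the lineage, had an r with MYH3, MYH8 and TNNT2 of 0.017, -0.149 and 0.042 in LM and 0.045, 0.044 and -0.008 in SM. MYOG, which drives their differentiation, had -0.027, 0.074 and -0.019 in LM and 0.119, 0.172 and 0.094 in SM. MYF6, the regulator found in mature fibres, was below 0 with all 3 in both muscles, from -0.174 to -0.288. TNNI3 had an r of -0.313 with VIM and -0.211 with SPP1 in SM.

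**Figure D5:**
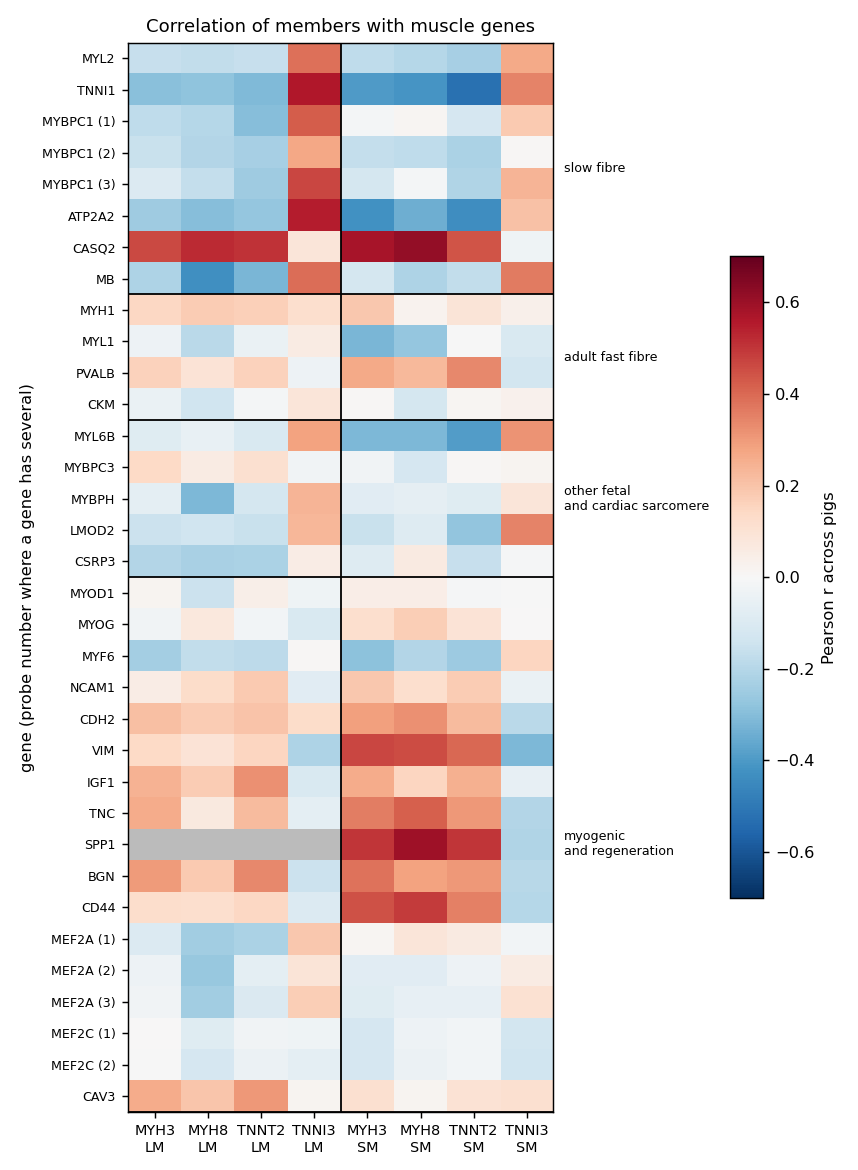
Pearson's r across pigs (colour) of each member (columns, LM at left and SM at right) with genes of 4 lists (rows, 1 row a probe). Grey marks SPP1 in LM, read in under 60 arrays. TNNI3 is red over most slow fibre genes where MYH3, MYH8 and TNNT2 are blue, and CASQ2, with r of 0.442 to 0.613 to those 3, is the exception.

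Beyond the lists, the named genes nearest to each member were taken in each muscle. After one another, MYH3, MYH8 and TNNT2 in LM had DCLK1, a microtubule-associated kinase, as their next gene, with r of 0.592, 0.601 and 0.736. For MYH3 the calcium-binding protein S100A6 (0.559) and for TNNT2 the cadherin CDH13 (0.559) came after it. PADI2, an enzyme that turns arginine in proteins into citrulline, was next with 0.551 for MYH3 and 0.544 for TNNT2, and in SM it was the next gene to both after the members, at 0.735 and 0.761. GPX1, a glutathione peroxidase, was among the 5 nearest of all 3 in SM (0.711, 0.680 and 0.648 for MYH3, MYH8 and TNNT2). Within slides the values of DCLK1, PADI2 and GPX1 were 0.626 to 0.755, apart from PADI2 with TNNT2 in LM at 0.576. NNAT and LGALS3 (galectin-3, a lectin of macrophages and injured tissue) were near to MYH8 in SM, at 0.717 and 0.699.

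Among the lowest r in LM were those of ASB2, a subunit of a ubiquitin ligase of muscle, with MYH8 (-0.624) and TNNT2 (-0.481), of NEDD4L, another ubiquitin ligase, with MYH8 (-0.541) and TNNT2 (-0.506), of BCAS2 with MYH8 (-0.521), and of APOD, a lipid carrier, with MYH3 (-0.457) and TNNT2 (-0.487). In SM they included TRIP4 with MYH3 (-0.623), MT-ND6, a subunit of complex I coded in the mitochondrion, with MYH8 (-0.608), and SRRM1 with TNNT2 (-0.548).

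The genes nearest to TNNI3 in LM were FANCA (0.576), TNNI1 (0.558), NKAIN1 (0.552), ATP2A2 (0.550) and the slow myosin-binding protein MYBPC1 (0.465), so 3 of 5 were slow fibre genes. Near to it in SM were ANKRD2 (0.476), a stretch-responsive protein of slow fibres, FANCA (0.452), MRPS6 (0.444) and CABIN1 (0.387). FANCA was thus near in both muscles. APOE, another lipid carrier, was among the 3 lowest in both muscles, at -0.449 in LM and -0.489 in SM. TNNI3 had fewer close genes than the other members: in SM no probe had an r above 0.5 with it, against 138 probes with MYH3, 85 with MYH8 and 52 with TNNT2.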

How the data were processed

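The scanner files, as deposited, hold for each spot of a Cy3 array a processed signal, an intensity on a linear scale that Agilent Feature Extraction made by subtracting background and correcting trends, with no normalization between arrays. A second deposited file gives 6903 probes as the natural log of that intensity minus 1 constant per array, and served as an alternative. From these, log2 values were computed, saturated, non-uniform or dim (not well above background) spots became missing values, probes failing in over 50% of the arrays of either muscle were dropped, arrays were centred on their median, and values over 3 SD from the probe mean were removed, which left 10987 of 15198 probes. These steps follow the study's methods up to the base of the log, but the study's terms for sex, batches and carcass weight are not in the labels and its filter by k-means was not applied.

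Muscles were compared with lmFit and eBayes of limma 3.58.1 (R 4.3.3, statmod 1.5.0) across all probes, with Benjamini-Hochberg adjustment, and slides with its F test. In simulated data for LM against SM with 10987 probes, 99% of changes of 0.5 and 100% of changes of 1 on the log2 scale were called. The changes were put on probes drawn at random, with arrays independent and no effect of slide, scan day or pig. These shares therefore do not hold for probes as variable as those of MYH3, MYH8 and TNNT2. Correlations and swaps of muscles within pigs used 100000 two-sided permutations (Python 3.11.15, NumPy 2.4.6, pandas 2.3.3, SciPy 1.17.1, matplotlib 3.10.9) and were tested on simulated data. Permutations were kept within slides only for correlations inside 1 muscle with values centred on slides. Correlations between the muscles and swaps were not restricted to slides. The number of arrays limits the precision. The index of C-rich probes takes the mean level of probes holding at least 8 C among bases 1 to 15 and subtracts the mean of probes holding at most 2.

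The replicate number names the same pig in both muscles by the labels, for 90 of 90 pigs. Over all probes, the deviations of the 2 muscles of a pig correlated at 0.071 on average, against -0.001 for different pigs. The named genes are the members, for each member and muscle the 5 genes with the highest and the 3 with the lowest Pearson r among probes named in the published lists (1 probe a gene, at least 60 arrays), and the genes of fixed lists. A gene that this rule named is not reported here. The members and lists were chosen with earlier results of these data known. Of the published lists only the probe names were used, and that of genes higher in SM was at hand only in part. The alternatives were other centring, background correction, spot and probe filters, the pig as a block, slide or scan day as a random block, the index of C-rich probes, the deposited table, and subsets of pigs. No protein or transcript reference was used here, so the probes' place in their transcripts is not given.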

Additional observations from a re-analysis of the deposited data

How the results depend on the processing

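The difference between muscles kept its direction for all 4 members under all 14 alternatives. With the pig as a block (replicate block) the log2 LM minus SM values were -1.39 for MYH3, -1.31 for MYH8, -0.69 for TNNT2 and -0.66 for TNNI3, and the block alone changed no call of a member. TNNT2 was not called at -0.34 with the index of C-rich probes and the pig as a block, or at -0.49 in the pigs whose number begins with M. Over the alternatives MYH3 ran from -1.07 to -1.46, MYH8 from -1.04 to -1.73 and TNNI3 from -0.58 to -0.85, all called.

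Of the correlations within a muscle, those in the M pigs were 0.379 for MYH3 with MYH8 in LM (no longer past the threshold) and 0.129 for MYH3 with TNNI3 in LM (sign turned, not past it). MYH8 with TNNI3 in SM passed the threshold at -0.240 without the 2 arrays farthest from the median. TNNT2 with TNNI3 in SM lost it at -0.181 within slides, -0.227 in the pigs with no letter and -0.417 in the M pigs. The correlation of MYH8 between the muscles lost it at 0.154 within slides, 0.233 with the index taken out, 0.206 without the 2 farthest arrays and 0.039 in the M pigs, and that of TNNI3 turned to -0.009 in the pigs with no letter. With values centred on slides, 3 differences of r (SM minus LM) turned sign, to -0.036 (MYH3 and TNNT2), -0.004 (MYH8 and TNNT2) and 0.022 (MYH8 and TNNI3), with no call before or after. With the index as a covariate, calls higher in SM among the other fetal and cardiac genes went from 4 to 1, and calls higher in LM from 6 to 3 among the myogenic (MYOD1 turned to higher in LM) and from 2 to 0 among the denervation genes, while with the pig as a block calls higher in LM among the other fetal and cardiac genes went from 1 to 2, with CSRP3. The cause of these changes was not tested, and the subsets also hold fewer pigs. TNNT2 was the member closest to background, so its low values are the least certain.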

Other observations

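A probe that the lists used here do not name, BX926893.1_70, followed MYH8 more closely than any other probe. Its r with MYH8 was 0.973 in LM (rho = 0.957) and 0.977 in SM (rho = 0.975), and it was also the 2nd of all probes to MYH3 in both muscles, at 0.655 and 0.835. Its log2 difference of SM minus LM was 1.31 (SE 0.20, adjusted p 4.9e-10 by limma), against 1.31 for MYH8. The sequence is shown because it carries this match, with the C of the first 15 bases in capitals.
BX926893.1_70, whole: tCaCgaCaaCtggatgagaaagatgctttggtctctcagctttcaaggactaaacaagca
It shares no run of over 7 bases with the MYH8 probe and holds 4 C in the first 15 bases against 2. Probes of the same transcript need not share a run. Which gene this probe reads was not determined, so it may be a further probe of MYH8 or of a related gene. It was chosen after its values were seen.

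Over the 8 probes of load and stress genes, the median r was -0.172 with MYH3 and -0.219 with MYH8 in LM, and -0.252 and -0.114 in SM. Not all were below 0: in SM, ANKRD1 had 0.069 and 0.275 and XIRP2 0.067 and 0.195 with MYH3 and MYH8, and the mean of the 8 probes had -0.055 with MYH8. ANKRD2 had an r with MYH3 of -0.309 and -0.337 in LM and -0.361 and -0.315 in SM over its 2 probes. Of the denervation genes, 3 of 10 were measured (NCAM1, GADD45A and MYOG), and their r with MYH3 ran from -0.027 to 0.054 in LM and from 0.004 to 0.188 in SM. NCAM1, an adhesion molecule of denervated fibres and satellite cells, was higher in SM by 0.48 on the log2 scale (SE 0.06, adjusted p 2.12e-14 by limma), while MYOG was higher in LM by 0.44 (SE 0.08, adjusted p 3.33e-07). With the C-rich probe index in the fit MYOG was not called, at 0.21 (SE 0.12, adjusted p 0.116).

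Of the remaining marker lists, C1QC and SPI1 of the macrophage list were higher in SM and CD68 was higher in LM, the leukocyte gene PTPRC was higher in SM, and so were S100B and PMP22 of the Schwann cell list. With the C-rich probe index in the fit, S100B turned to higher in LM by 0.15 (SE 0.04, adjusted p 2.67e-04 by limma). The log2 LM minus SM of SPI1 was -3.02, and -0.31 with the index (SE 0.12, adjusted p 0.0144 by limma). SPI1 had values in 49 arrays of LM, so the macrophage mean in LM lacks it in the others. The mean levels of the macrophage, leukocyte and Schwann cell lists correlated with MYH3 at 0.081, 0.046 and 0.001 in LM and at 0.138, 0.190 and 0.221 in SM.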
